A study of Leucoraja erinaceus with 6 samples.

Results

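Transcripts of the Hedgehog pathway were measured by bulk RNA-seq in 2 tissues of the little skate, Leucoraja erinacea, taken from untreated wild-type stage 32 embryos. The tissues were dorsal root ganglia (DRG), which hold the cell bodies of sensory neurons with their glia, and the spinal cord. Each tissue had 3 libraries, and each library held tissue from 3 to 4 embryos, so the error given is that between pools. Both tissues came from the same numbered pools, 815, 816 and 818, which the labels call replicates 1, 2 and 3. The genes were the rows whose name was a Hedgehog ligand, Patched, Smoothened, Gli or Hhip symbol. Among 22087 named genes, 5 that the rule took are reported: the ligand genes shha and dhh, the receptor gene ptch1, the decoy receptor gene hhip, and smo. No row was taken for ihh or for gli1, gli2 and gli3 under those exact names, so these genes are not analysed here; a gli2a row is given separately.

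Hedgehog proteins are secreted signals. In the absence of ligand the receptor Patched holds the membrane protein Smoothened inactive; ligand binding to Patched releases Smoothened, which acts at the primary cilium and turns the Gli transcription factors into activators. In mouse, Ptch1 and Hhip are themselves targets of Gli, and both proteins bind ligand and limit its spread. In mouse and chick embryos, Shh from the notochord and floor plate patterns the ventral spinal cord, and in mouse nerves Dhh is made by Schwann cells and acts on the surrounding perineurium.

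Levels below are CPM, counts scaled to a common library size with TMM factors, which correct for differences in library composition. The libraries held 24342810 to 28782887 counts in named genes, and 3 counts, taken as the floor, stood at 0.136 to 0.176 CPM in DRG, against 0.0764 to 0.0888 CPM in spinal cord. Mitochondrial protein-coding genes took 24.3% to 35.7% of the counts in DRG and 5.39% to 6.88% in spinal cord. The tissue labels were checked against marker lists. Of 8 tested sensory neuron genes, 7 were higher in DRG, against 27.8% of all tested genes. The summed level of that list was 753 to 1000 CPM in DRG, against 206 to 223 CPM in spinal cord. All 8 tested floor plate and ventral cord genes were lower in DRG, as were 6 of 7 tested dorsal and intermediate cord genes, against 28.1% of all tested genes. Of these, 5 ventral genes and all 6 dorsal and intermediate genes passed the filter on low counts through spinal cord alone. A lower value in DRG was thus favoured for them, and the cord counts are a description.

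Of these 5 Hedgehog genes, 4 were lower in DRG than in spinal cord and 1, hhip, did not pass the test (edgeR's quasi-likelihood test, Benjamini-Hochberg adjusted p under 0.05 over 16112 tested genes). Among all tested genes 28.1% were lower and 27.8% higher in DRG, so that 55.9% differed in either direction. Fold changes are DRG over spinal cord; on the log2 scale their median was -1.52 over the 5 genes and -0.04 over all tested genes. The DRG libraries lay below every spinal cord library for the same 4 genes, which was so for 34.1% of all tested genes; 65.0% separated in either direction. All 5 genes passed the filter on low counts, but shha and dhh did so through their spinal cord counts, so a lower value in DRG was favoured for these 2, and the counts above are a description. In bulk tissue, fewer cells that express a gene and less RNA per cell cannot be told apart.

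**Figure D1:**
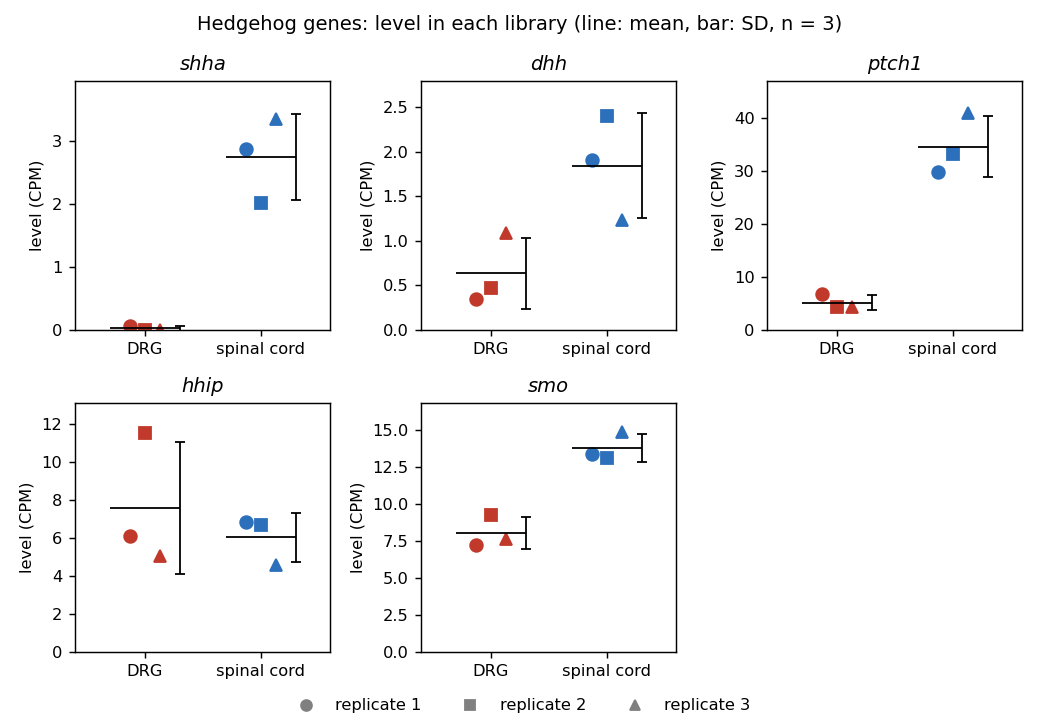
Level of each Hedgehog gene (y axis, CPM from 0) in the 3 DRG and the 3 spinal cord libraries; each symbol is 1 library, the line is the mean and the bar the SD. The tissues separate for shha, dhh, ptch1 and smo and overlap for hhip.

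The ligand gene shha, the skate gene named for Sonic hedgehog, was close to absent from DRG. DRG replicates 1, 2 and 3 held 1, 0 and 0 counts, and spinal cord replicates 1, 2 and 3 held 113, 68 and 131. In CPM this was 0.0572, 0 and 0 in DRG, against 2.88, 2.01 and 3.35 in spinal cord. The DRG libraries were all under the floor, and the spinal cord libraries were all well above it. The pooled rate in DRG was 0.00634 times that in spinal cord, with a 95% exact interval of 0.00016 to 0.0356. The labels name no molecular identifiers, and this interval covers counting error and no other source. The difference passed the test (edgeR adjusted p = 0.000213), and it passed in every alternative in which the gene was tested (adjusted p 1.14e-07 to 0.00179). The shha row passed the filter on low counts through spinal cord alone. A lower value in DRG was thus favoured, and these p-values are a description. The fitted log2 fold change, -6.95, rests on that single DRG count and gives no size.

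The ligand gene dhh, named for Desert hedgehog, was found in both tissues. DRG replicates 1, 2 and 3 held 6, 8 and 24 counts, or 0.343, 0.469 and 1.08 CPM, against 75, 81 and 48 counts, or 1.91, 2.40 and 1.23 CPM, in spinal cord replicates 1, 2 and 3. The groups did not overlap, but the highest DRG library and the lowest spinal cord library, both from pool 818, were close to each other. The mean was 0.632 ± 0.397 CPM in DRG, against 1.85 ± 0.587 CPM in spinal cord (± SD of 3 libraries each), a log2 fold change of -1.52 ± 0.55 SE (edgeR adjusted p = 0.0454). The call was not firm. With the pool number as a replicate block the log2 fold change was -1.61 (adjusted p = 0.0844), and the call was lost in 5 of 6 fits with 1 library left out (adjusted p 0.0579 to 0.155), holding only without DRG replicate 3, where the log2 fold change was -2.18 (adjusted p = 0.0116). Without DRG replicates 1 and 2 in turn it was -1.24 and -1.35, and without spinal cord replicates 1, 2 and 3 in turn it was -1.50, -1.29 and -1.75.

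Set against each other within a library, the ligand genes differed in their balance. Of the counts of both ligand genes, dhh took 6 of 7, 8 of 8 and 24 of 24 in DRG replicates 1, 2 and 3, which is 85.7%, 100.0% and 100.0%, with 95% Wilson intervals that start at 48.7%, 67.6% and 86.2%. In spinal cord replicates 1, 2 and 3 it took 39.9%, 54.4% and 26.8% (intervals 33.2% to 47.0%, 46.4% to 62.2% and 20.9% to 33.7%). The share was higher in each DRG library than in each spinal cord library. With 1, 0 and 0 counts of shha in DRG, this largely restates the near absence of shha there and is not a separate result. Both genes also passed the filter on low counts through their spinal cord counts. These are shares of counts, not of molecules, because transcript lengths were not used here. On the log2 scale with 2 added to each count, the ratio of dhh to shha averaged 2.48 ± 1.15 in DRG, against -0.58 ± 0.83 in spinal cord (± SD of 3 libraries each). The difference of 3.06 had a two-sided exact permutation p of 0.1, the smallest that 3 against 3 libraries allow, and it was 4.53 with 0.5 added to each count.

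The gene ptch1, which encodes the main Hedgehog receptor, was several-fold lower in DRG. Its level was 6.69, 4.22 and 4.34 CPM in DRG replicates 1, 2 and 3, against 29.8, 33.2 and 40.9 CPM in spinal cord replicates 1, 2 and 3. The lowest spinal cord library was thus more than 4 times the highest DRG library. The mean was 5.08 ± 1.39 CPM in DRG, against 34.6 ± 5.67 CPM in spinal cord (± SD of 3 libraries each), a log2 fold change of -2.77 ± 0.23 SE (edgeR adjusted p = 4.62e-05), which made ptch1 6.82-fold lower in DRG.

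The gene hhip, whose product binds Hedgehog ligand at the cell surface and keeps it from Patched, did not pass the test in either direction. It had 6.12, 11.6 and 5.06 CPM in DRG replicates 1, 2 and 3, against 6.87, 6.69 and 4.56 CPM in spinal cord replicates 1, 2 and 3. The groups overlapped, and DRG replicate 2 was the highest of all 6 libraries. The log2 fold change was 0.32 ± 0.35 SE with a 95% interval of -0.49 to 1.14 (edgeR adjusted p = 0.463). Its sign depended on DRG replicate 2 and on the scaling: it was -0.12 without that library (adjusted p = 0.743) and -0.66 when TMM was replaced by library sizes alone (adjusted p = 0.0967). With library sizes alone the median of all tested genes also moved, to -0.99, and relative to that median hhip stood at 0.33. Among other cell types, 5 connective tissue genes were summed. Their level was 2380, 3490 and 1470 CPM in DRG replicates 1, 2 and 3, against 145, 172 and 172 CPM in spinal cord. Most of this sum in DRG was col1a2, at 2017, 3054 and 1178 CPM. The sum was highest in DRG replicate 2, as hhip was, and of the 5 genes itgb4 alone was not. The summed level of Schwann cell and satellite glia genes was also highest there (8460, 14300 and 7920 CPM). The part of either list in the hhip level was not tested.

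The signal transducer gene smo was lower in DRG by less than ptch1. Its level was 7.21, 9.26 and 7.59 CPM in DRG replicates 1, 2 and 3, against 13.4, 13.1 and 14.9 CPM in spinal cord replicates 1, 2 and 3. The groups did not overlap, and both varied little, with means of 8.02 ± 1.09 CPM in DRG, against 13.8 ± 0.952 CPM in spinal cord (± SD of 3 libraries each). The log2 fold change was -0.78 ± 0.19 SE (edgeR adjusted p = 0.00765), a 1.72-fold lower level in DRG. Smo thus passed the test with the smallest change of the 4 genes that did.

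To compare the genes with one another without any scaling between libraries, all 10 pairs of the 5 genes were followed as log2 ratios within each library. Of these, the pair dhh to shha had been set down as a test, and the others were chosen after the values were seen. The ratio of smo to ptch1 was 0.11, 1.11 and 0.79 in DRG replicates 1, 2 and 3, against -1.15, -1.34 and -1.45 in spinal cord (difference 1.99). The ratio of hhip to ptch1 was -0.13, 1.43 and 0.22 in DRG, against -2.11, -2.30 and -3.15 in spinal cord (difference 3.03). The ratio of hhip to smo was -0.23, 0.31 and -0.58 in DRG, against -0.95, -0.96 and -1.70 in spinal cord (difference 1.04). In each of these ratios the tissues separated without overlap, which is a description of pairs picked for it and not a test. A total of 8 of the 10 pairs separated, and each of the 8 had the smallest two-sided exact permutation p that the design allows, 0.1, or 0.125 after Benjamini-Hochberg adjustment over the 10 pairs. The levels of 65.0% of all tested genes separated on their own, and the share over all pairs of genes was not computed. The 10 pairs share 5 genes and are not independent, and those with shha rest on its 1, 0 and 0 DRG counts. These p-values are a description. This holds for dhh to shha too, as both genes passed the filter on low counts through their spinal cord counts. The permutations did not use the pairing of libraries by pool. The pairs that overlapped were smo to dhh and ptch1 to dhh.

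**Figure D2:**
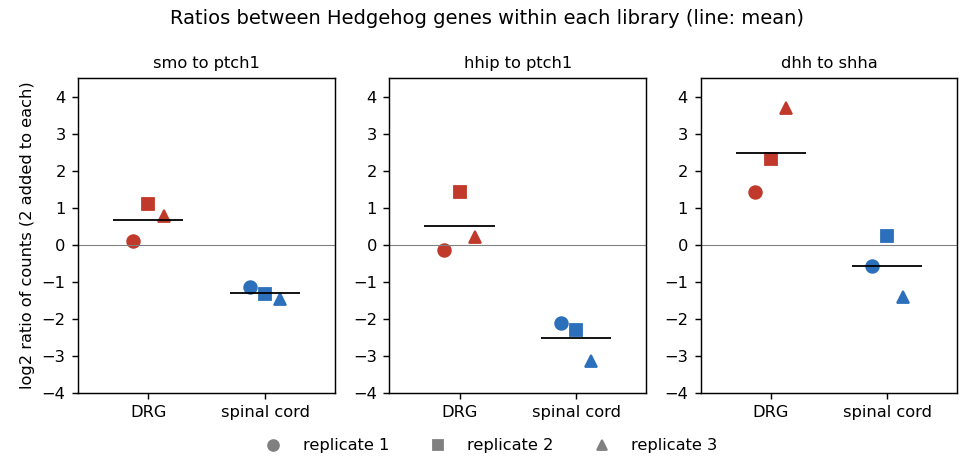
Log2 ratio of counts between pairs of Hedgehog genes (y axis, 2 added to each count) in each DRG and spinal cord library; each symbol is 1 library and the line is the mean. The levels of smo and hhip are higher relative to ptch1, and dhh relative to shha, in each DRG library.

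The single Gli gene followed, gli2a, lay outside the rule and was added after its values were seen. Gli2 is a main activator of Hedgehog targets in the mouse neural tube. Its level was 1.03, 1.64 and 1.49 CPM in DRG replicates 1, 2 and 3, against 4.48, 5.57 and 4.81 CPM in spinal cord replicates 1, 2 and 3. The groups were well apart, with a log2 fold change of -1.83 ± 0.32 SE (edgeR adjusted p = 0.00172), a size between those of smo and ptch1. In the RefSeq gene table the gli2a gene overlaps a long non-coding RNA gene, LOC129699093; how reads over both were assigned is not given in the sources used here.

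Other genes of the pathway were followed in 3 lists of 47 symbols, of which 25 matched a gene and all 25 were tested. Of these, 9 were lower and 4 higher in DRG, and 12 did not pass; 52.0% thus differed, against 55.9% of all tested genes, so their share was near that of the whole table. By list, 57.1% of the ligand release genes, 50.0% of the coreceptor genes and 50.0% of the signal transduction genes differed. Over all tested genes 28.1% were lower and 27.8% higher in DRG, the shares to set beside the counts of each list below. The median log2 fold change of all 25 genes was -0.27. When library sizes alone replaced TMM, 0 were higher and 19 lower in DRG.

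Among 7 genes for ligand release and patched-domain relatives, 2 were lower and 2 higher in DRG (median log2 fold change 0.02). The patched-domain genes ptchd4 and ptchd1 were the 2 lower ones. The level of ptchd4 averaged 3.76 ± 1.23 CPM in DRG, against 26.9 ± 3.07 CPM in spinal cord (± SD of 3 libraries each; log2 fold change -2.83, edgeR adjusted p = 6.3e-05). For ptchd1 the means were 4.53 ± 1.94 CPM in DRG, against 20.4 ± 2.00 CPM in spinal cord (log2 fold change -2.17, adjusted p = 0.000843). Both changes lay near that of ptch1, and whether they differ from it was not tested. In the other direction, scube3, a relative of a gene whose product helps ligand leave the cell in zebrafish, averaged 27.5 ± 2.64 CPM in DRG, against 17.4 ± 1.36 CPM in spinal cord (± SD of 3 libraries each; log2 fold change 0.66, edgeR adjusted p = 0.00484). For disp1, which releases lipid-modified Hedgehog from the producing cell, the means were 21.9 ± 5.79 CPM in DRG, against 13.9 ± 1.59 CPM in spinal cord (log2 fold change 0.65, edgeR adjusted p = 0.0357). The disp1 call did not hold with the pool number as a replicate block (adjusted p = 0.0608) and without DRG replicate 1 or 3 or any 1 spinal cord library, and both scube3 and disp1 fell below 0 with library sizes alone (-0.29 and -0.28).

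Of 4 tested coreceptor genes, 2 were lower in DRG, 0 were higher and 2 did not pass (median -1.05). The lipoprotein receptor gene lrp2a, whose mouse counterpart binds Shh in the developing forebrain, passed the filter through spinal cord alone. It was at 1.37, 0.704 and 0.452 CPM in DRG replicates 1, 2 and 3, against 11.9, 13.1 and 12.3 CPM in spinal cord. Its log2 fold change of -3.89 ± 0.40 SE was larger in size than that of ptch1, a difference that was not tested (edgeR adjusted p = 0.000111). The coreceptor gene cdon averaged 16.9 ± 2.69 CPM in DRG, against 40.1 ± 1.06 CPM in spinal cord (± SD of 3 libraries each; log2 fold change -1.25, edgeR adjusted p = 0.000262). A further coreceptor gene, gas1a, named after its values were seen, was at 14.3, 23.6 and 9.22 CPM in DRG replicates 1, 2 and 3, against 17.6, 16.7 and 17.8 CPM in spinal cord (adjusted p = 0.706). Like hhip, gas1a was highest in DRG replicate 2.

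Of 14 tested genes between Smoothened and the Gli factors, 5 were lower and 2 higher in DRG, and 7 did not pass (median -0.22). The Gli inhibitor gene sufu averaged 8.21 ± 1.74 CPM in DRG, against 23.8 ± 2.58 CPM in spinal cord (± SD of 3 libraries each; log2 fold change -1.53, edgeR adjusted p = 0.000351). The gene iqce, part of the complex at the base of the cilium that relays Smoothened activity in mammalian cells, averaged 2.81 ± 0.461 CPM in DRG, against 9.54 ± 0.537 CPM in spinal cord (log2 fold change -1.76, adjusted p = 0.000432). Larger changes were found for the ubiquitin ligase gene smurf1 (-2.57, adjusted p = 0.000119) and the receptor kinase gene grk3 (-2.44, adjusted p = 2.9e-05), both of which also act in other pathways. The cilium kinesin gene kif7, named after its values were seen, was lower by a similar factor to sufu (-1.47, adjusted p = 0.000983). The 2 genes higher in DRG were the protein kinase genes ulk3 and csnk1a1 (log2 fold changes 1.04 and 0.62, adjusted p = 0.00288 and 0.00371), also named after their values were seen. With library sizes alone ulk3 was at 0.12 and no longer passed, and csnk1a1 was at -0.32.

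**Figure D3:**
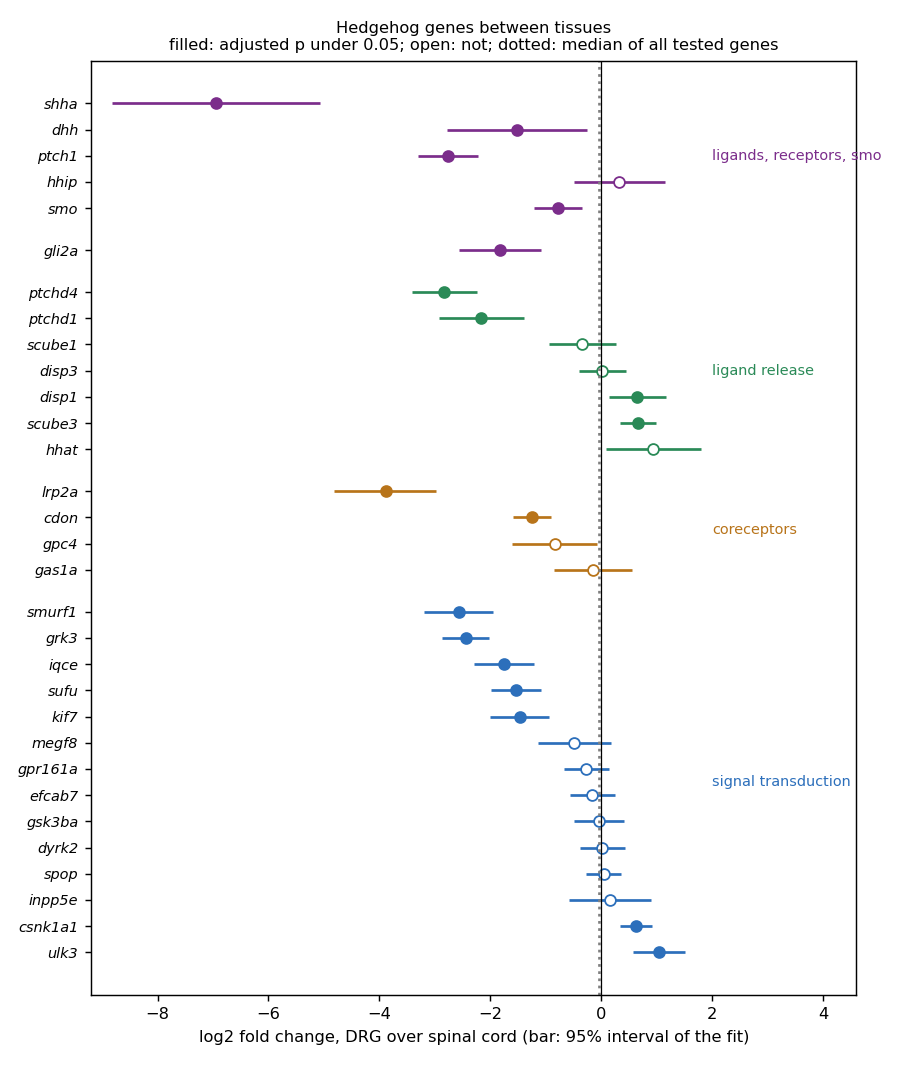
Log2 fold change, DRG over spinal cord (x axis), of the Hedgehog genes, gli2a and the 25 other pathway genes, with the 95% interval of the fit as a bar. Filled points passed the test at an adjusted p under 0.05, and the dotted line is the median of all tested genes at -0.04; the shha point rests on 1 DRG count.

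Genes of cilia were followed because the pathway runs through the primary cilium in mouse. Of 10 tested, 5 were lower and 2 higher in DRG, with a median of -0.50; the share that differed, 70.0%, stands beside 55.9% of all tested genes. The list also holds foxj1b, a regulator of motile cilia, which had the change of greatest size in it (-2.26, edgeR adjusted p = 0.00101) and is named after its values were seen. The basal body gene cep290 averaged 22.8 ± 2.83 CPM in DRG, against 48.7 ± 3.86 CPM in spinal cord (± SD of 3 libraries each; log2 fold change -1.09, edgeR adjusted p = 0.00043). The cilium motor gene kif3a and the transport gene ift172 were the 2 higher ones (0.72 and 0.46, adjusted p = 0.045 and 0.0403), and both fell below 0 with library sizes alone (-0.20 and -0.48). Both calls were also lost when DRG replicate 1 or 3 or any 1 spinal cord library was left out.

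Genes that lie downstream of Shh in the neural tube of mouse and chick were followed next. Of 11 matched floor plate and ventral cord genes, 8 were tested and all 8 were lower in DRG, against 28.1% of all tested genes (median -5.21, or -3.29 with the 2 genes at the floor in DRG set to 3 counts). Of the 8, 5 passed the filter on low counts through spinal cord alone, among them foxa2, olig2, nkx6.1 and nkx6.2, so a lower value in DRG was favoured for these, and the count is a description. The other 3, ntn1a, slit1a and slit2, reached the filter's level in both tissues, with log2 fold changes of -3.27, -2.26 and -1.09 (edgeR adjusted p = 6.86e-05, 0.00154 and 0.00228). Among the 3 not tested, nkx2.9 had 3, 0 and 2 counts in DRG and 0 in each spinal cord library. The floor plate gene foxa2 was at 0.0572, 0 and 0 CPM in DRG replicates 1, 2 and 3, against 1.91, 1.57 and 1.33 CPM in spinal cord (edgeR adjusted p = 0.000471). Its DRG counts, 1, 0 and 0, were the same as those of shha, and its spinal cord levels were above the floor. The ventral cord genes olig2, nkx6.2 and nkx6.1 had means of 0.447 ± 0.297, 0.308 ± 0.165 and 0.214 ± 0.278 CPM in DRG. In spinal cord their means were 51.2 ± 5.90, 33.0 ± 2.96 and 10.7 ± 0.570 CPM (± SD of 3 libraries each). Their log2 fold changes were -6.84, -6.69 and -5.70. Which cells express these genes in the cord at this stage was not tested. Genes of the dorsal and intermediate cord, on which Shh acts little or in the opposite direction in those species, gave a like count. Of 11 matched, 7 were tested and 6 were lower in DRG (median -4.18), but all 6 passed the filter through spinal cord alone, so this count is favoured in the same way. Among them pax3b averaged 0.195 ± 0.0852 CPM in DRG, against 3.61 ± 0.283 CPM in spinal cord, and pax6b 0.114 ± 0.113 CPM in DRG, against 5.44 ± 0.126 CPM in spinal cord (± SD of 3 libraries each; edgeR adjusted p = 0.00014 and 0.00026). The genes irx3a and irx5a averaged 0.0928 ± 0.0723 and 0.108 ± 0.0612 CPM in DRG, against 4.38 ± 0.241 and 3.11 ± 0.691 CPM in spinal cord.

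Of 8 tested genes named as Gli targets outside the neural tube, 3 were lower and 2 higher in DRG (median -0.42). The share that differed, 62.5%, was near the 55.9% of all tested genes. The growth gene mycn averaged 7.14 ± 0.557 CPM in DRG, against 17.1 ± 0.445 CPM in spinal cord (± SD of 3 libraries each; log2 fold change -1.26, edgeR adjusted p = 0.000368). The cell cycle kinase gene cdk6 was lower in DRG by -1.45 on the log2 scale (adjusted p = 0.00207), and the Notch ligand gene jag2b was higher by 1.95 (adjusted p = 0.000205).

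Markers of cells that express or receive Hedgehog in other vertebrates were set beside these values. The Schwann cell and satellite glia list, cells that make Dhh in mouse nerve, had 4 genes lower and 4 higher in DRG among 10 tested (median -0.25). Its summed level was 8460, 14300 and 7920 CPM in DRG replicates 1, 2 and 3, against 38000, 46100 and 43200 CPM in spinal cord. The myelin gene mpz made up 22.5% to 27.6% of that sum in DRG, against 70.3% to 77.1% in spinal cord. It was at 2644 ± 1129 CPM in DRG, against 31500 ± 4454 CPM in spinal cord (± SD of 3 libraries each; log2 fold change -3.57, edgeR adjusted p = 9.4e-05). Without mpz the list summed to 6560, 10300 and 5830 CPM in DRG replicates 1, 2 and 3, against 11300, 10600 and 11000 CPM in spinal cord. Most of what remained in spinal cord was a further myelin gene, mbpa, at 8043, 7930 and 8109 CPM in replicates 1, 2 and 3. In DRG mbpa was at 1488, 2742 and 1993 CPM. The sum without mpz thus still leans on 1 gene in spinal cord and gives no direction for the rest of the list. Within DRG, dhh was highest in replicate 3 and both sums in replicate 2. The 4 genes higher in DRG, named with the next 2 after their values were seen, were the myelination regulator gene egr2b, the peripheral myelin gene pmp22b, the glial gene s100b and the neural crest gene foxd3 (log2 fold changes 4.47, 3.93, 2.68 and 1.90, edgeR adjusted p at most 0.000458). The glial regulator gene sox10 and the myelin gene plp1a were lower in DRG (-2.91 and -4.01). The list thus did not move one way between the tissues. Whether its genes mark the same cells in spinal cord as in DRG was not tested, so the sums do not give the amount of Schwann cells. The part of these cells in the dhh level was not tested either. The myelin gene mbpa was also lower in DRG (-1.95), and fabp7b was at 1927 ± 971 CPM in DRG, against 1936 ± 242 CPM in spinal cord (adjusted p = 0.988).

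Of 16 perineurium and connective tissue symbols, 5 matched a gene. Of these 5 genes, 4 were higher in DRG, against 27.8% of all tested genes, 0 were lower and 1 did not pass (median 3.09). The gene that did not pass, itgb4, named after its values were seen, had a log2 fold change of -0.14 (edgeR adjusted p = 0.698). Which cells the 4 higher genes mark in skate was not tested. The collagen gene col1a2 averaged 2083 ± 939 CPM in DRG, against 100.4 ± 20.2 CPM in spinal cord, and the proteoglycan genes ogna and dcn averaged 197 ± 48.5 and 120 ± 36.1 CPM in DRG, against 1.89 ± 0.640 and 14.1 ± 3.83 CPM in spinal cord (± SD of 3 libraries each; log2 fold changes 4.38, 6.69 and 3.09, edgeR adjusted p at most 7.9e-05). The cartilage and notochord list had 2 genes higher and 4 lower in DRG among 6 tested (median -1.99, or -1.88 with 1 gene at the floor set to 3 counts). Among all tested genes 27.8% were higher and 28.1% lower in DRG. Its summed level was 125, 128 and 77.6 CPM in DRG, against 132, 149 and 143 CPM in spinal cord. In it, col2a1a was higher in DRG (2.34) and hapln1b and sox9a were lower (-1.59 and -2.40), and the notochord gene tbxtb had 0 counts in each DRG library and at most 0.0296 CPM in spinal cord. The other notochord gene matched, chrd, had 0 counts in each DRG library, against 0.687, 0.710 and 0.768 CPM in spinal cord. The tbxtb row, with 0, 1 and 1 counts in spinal cord replicates 1, 2 and 3, was too low to be tested. The chrd row was above the floor in spinal cord and passed the filter on low counts through that tissue alone. The part of notochord tissue in the shha level was not tested.

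Genes with only a LOC identifier were left out of a search for levels most like that of ptch1 over the 6 libraries. By Pearson's r of log2 CPM, the most alike of the other tested genes were plxnb1b, mxd1, hpse, epc2 and crb1 (r 0.998 to 0.999). Among the Hedgehog genes r with ptch1 was 0.995 for shha, 0.922 for smo, 0.746 for dhh and -0.381 for hhip. These values describe 6 libraries of 2 tissues, so that any gene clearly lower in DRG and with little spread gives a high r. Of all tested genes, 11.5% had an r of at least 0.95, and 28.1% were lower in DRG. The r of shha rests on its 1, 0 and 0 DRG counts. The semaphorin receptor gene plxnb1b averaged 12.4 ± 3.99 CPM in DRG, against 104 ± 13.4 CPM in spinal cord (± SD of 3 libraries each, log2 fold change -3.06). The cell polarity gene crb1 averaged 0.718 ± 0.423 CPM in DRG, against 30.3 ± 6.38 CPM in spinal cord (± SD of 3 libraries each, log2 fold change -5.40). With 21, 7 and 12 counts in DRG, crb1 passed the filter on low counts through spinal cord alone. A lower value in DRG was thus favoured for crb1.

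The neighbours of the Hedgehog genes were looked up in the RefSeq gene table of the assembly Leri_hhj_1, which gives all 5 genes under these names; the genome build of the counts is not given in the sources used here, so no coordinates are printed. Of 10 named protein-coding genes within 2 places on either side, 7 were lower and 2 higher in DRG, and 1 did not pass. Among all tested genes 28.1% were lower and 27.8% higher in DRG. Whether the neighbours differ from other genes as a group was not tested. Beside smo, tspan33a, ahcyl2b and strip2 were each lower in DRG (log2 fold changes -1.99, -1.02 and -2.70, edgeR adjusted p = 0.00024, 0.000581 and 0.00978). Of these, strip2 had 4, 6 and 37 counts in DRG replicates 1, 2 and 3. It passed the filter on low counts through spinal cord alone, so a lower value in DRG was favoured for it. It is among the 7 lower neighbours. Beside ptch1, fancc was lower in DRG (-1.08, adjusted p = 0.0219), although its call was lost without any 1 spinal cord library, aopep was higher (2.55, adjusted p = 0.000121), and ercc6l2 was at -0.50 (adjusted p = 0.109). The nearest named gene to dhh, lmbr1l, was lower in DRG (-0.93, adjusted p = 0.0275), but did not pass with pool number as a replicate block (adjusted p = 0.0532), nor without DRG replicate 2 or spinal cord replicate 1 or 2. The nearest named gene on the other side of dhh, kmt2d, was also lower in DRG (-1.20, edgeR adjusted p = 0.0121). Its mean was 74.0 ± 25.4 CPM in DRG, against 170 ± 50.5 CPM in spinal cord (± SD of 3 libraries each). In kmt2d and lmbr1l, as in dhh, replicate 3 was the highest DRG library and the lowest spinal cord library. For kmt2d it was at 96.3 CPM in DRG, against 112 CPM in spinal cord. The share of all tested genes with this order of libraries was not computed. The shha neighbour rbm33a was lower in DRG (-1.31, adjusted p = 0.000212). The hhip neighbour anapc10 was higher in DRG (0.76, adjusted p = 0.0222), a call lost without DRG replicate 1 or spinal cord replicate 2 or 3, and it was at -0.21 with library sizes alone. Of the 5 genes, hhip alone overlaps another gene in that table, a transfer RNA gene.

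The fold changes of the 5 genes were recomputed under up to 15 alternatives of scaling, test, filter, block and libraries. For ptch1 they ran from -3.74 to -2.64 on the log2 scale, and the gene passed each time. For smo they ran from -1.74 to -0.72, with an adjusted p of at most 0.0399. Library sizes alone gave the lowest value of ptch1, smo, dhh and hhip, and relative to the median of all tested genes the values of ptch1 and smo were then -2.75 and -0.75, against -2.73 and -0.74 with TMM.

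**Figure D4:**
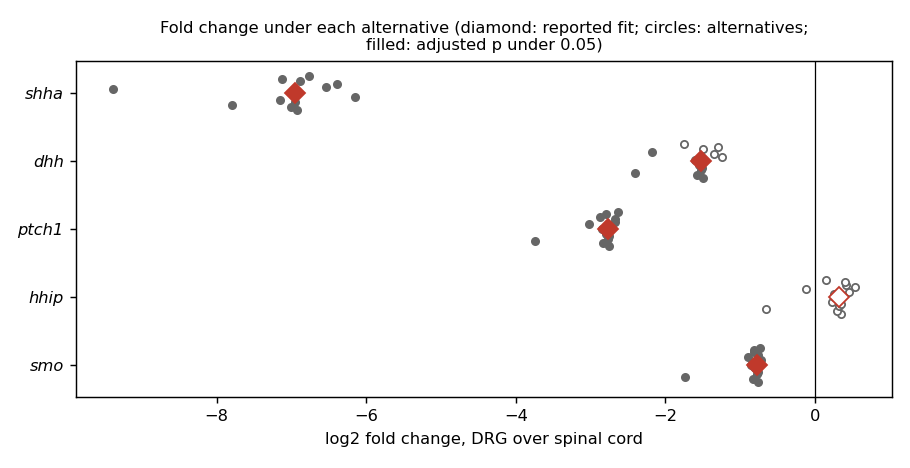
Log2 fold change, DRG over spinal cord (x axis), of the 5 Hedgehog genes in the reported fit (diamonds) and under each alternative (circles); filled symbols passed at an adjusted p under 0.05. Under all alternatives run, shha, ptch1 and smo stay below 0 and filled, dhh stays below 0 with several open circles, and hhip lies on both sides of 0 and is never filled.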

How the data were processed

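Per the labels' protocols, stranded polyA libraries of DRG and spinal cord were sequenced with paired-end reads. The authors deposited raw whole-number counts per gene; the submitters' processing notes name Trimmomatic, HISAT2 2.2.0, SAMtools, featureCounts and edgeR 4.4. The strand setting, genome build and annotation are not given in the sources used here, so counts of overlapping genes and close paralogs are uncertain.

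From these counts, 24 rows that name no gene (1.02% to 2.04% of counts) were left out. Genes passing filterByExpr went into the quasi-likelihood test of edgeR 4.0.16 (R 4.3.3) with TMM factors and tissue as the only term; 5975 genes were not tested. The common dispersion corresponded to a biological coefficient of variation of 28.6%. SE is the size of the log2 fold change over the square root of F. CPM of 3 counts is the floor. For ratios, exact permutation tests were two-sided. A gene passed the filter through spinal cord alone where every spinal cord library but not every DRG library reached its level. Intervals of counts and shares cover counting error only.

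The labels give the pool number as a shared batch, which pairs the libraries; the correlation of paired deviations from tissue means over 16112 genes was 0.48, -0.24 and -0.18 for pools 815, 816 and 818. The fit without the block follows the series text, and the blocked fit is an alternative. With 1 library per tissue in each batch, no test within a batch could be made. Whether pools are separate clutches is not given, so p-values measure the spread between pools.

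The rule took 6 genes, of which 1 is not reported here. The genes and the 11 lists were chosen with earlier results of these data known. Matching of symbols ignored case and tried the suffixes a and b; 167 symbols gave 99 genes. Named from the pathway and cord lists were the up to 4 largest changes past the threshold, and from other lists up to 3 genes of highest level. Genes most like ptch1 were the 5 with the highest r among tested genes without a LOC identifier. Alternatives were other scalings, DESeq2 1.42.0, limma 3.58.1 voom, other filters, the block, removal of 13 mitochondrial genes and leaving out each library. No sequence was used here.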

Additional observations from a re-analysis of the deposited data

How the results depend on the processing

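The lower levels of shha, ptch1 and smo in DRG kept their direction and their side of the threshold under every alternative in which they were tested. Their log2 fold changes were -9.38 to -6.15, -3.74 to -2.64 and -1.74 to -0.72. Without DRG replicate 1, where shha was at -9.38, no DRG count of shha was left. The shha row passed the filter on low counts through spinal cord alone, so a lower value in DRG was favoured for shha. The call of dhh was lost without a filter (-1.55, adjusted p = 0.0536) and with the replicate block (-1.61, adjusted p = 0.0844). It was also lost in 5 of 6 fits that left out 1 library (-1.75 to -1.24). The remaining such fit dropped DRG replicate 3 and kept the call, at -2.18. Why the call was lost was not tested. The sign of hhip turned with library sizes alone (-0.66) and without DRG replicate 2 (-0.12), in a range of -0.12 to 0.54 over the fits that left out 1 library. The number of Hedgehog genes that differed was 4, and 2 of the 3 tested where at least 10 counts were asked for in every library, a filter that removes shha and dhh; it was 3 to 4 over the fits that left out 1 library. The log2 ratio of dhh to shha differed by 4.53 with 0.5 added to each count, and by 2.45 to 3.59 when 1 library was left out. The ratio of gli1 to gli3 was not run, as neither name was taken by the rule. The number of genes that differed in the whole table, 9002, was 7416 to 10882, and that of other pathway genes, 13, was 12 to 19. Library sizes alone put 84.5% of calls lower in DRG, against 50.3% with TMM. The replicate block changed no other call among the Hedgehog genes. Counts of the Hedgehog genes in DRG were fewest for shha and dhh, 1 and 38 over the 3 libraries, which limits the precision of both.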
